A study of Mus musculus with 18 samples.

Results

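The 8 genes described here encode an anti-inflammatory and alternative-activation cytokine axis: the ligand genes Il10 and Tgfb1 and the receptor chain genes Il10ra, Il10rb, Tgfbr1, Tgfbr2, Il4ra and Il13ra1. They are the 8 of 50600 gene rows whose Ensembl identifiers map to these symbols, and this rule uses no measured value. Each of the 8 passed the filter on low counts and is among the 15663 genes tested, Il10 only through its libraries with LPS, where it was higher. RNA-seq was carried out on bone marrow-derived macrophages (BMDMs) from WT or IRF5-/- mice, grown for 8 days in recombinant GM-CSF. IRF5 is a transcription factor of inflammatory macrophages, and defactinib is a kinase inhibitor of FAK and PYK2. The 6 groups of 3 libraries were WT unstimulated, WT with LPS (bacterial lipopolysaccharide, 100 ng/ml for 2 h) and DMSO, WT with LPS and defactinib (3.5 uM, given 1 h before LPS), and the same 3 conditions in cells labelled IRF5-/-. The unstimulated libraries carry a DMSO label, and the study's legend gives a 1 h pretreatment with defactinib or DMSO before LPS for 0 or 2 h. Their column names mark them as untreated, so the sources differ on whether they received vehicle. The comparisons ask how LPS, the inhibitor and the loss of IRF5 move the transcripts of this axis.

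IL-10 binds the chain encoded by Il10ra, which recruits the shared chain encoded by Il10rb, and signals through JAK1, TYK2 and STAT3 to restrain inflammatory gene expression in macrophages. TGF-beta, released from a latent complex, binds the type II receptor (Tgfbr2), which activates the type I receptor kinase (Tgfbr1) and so the SMAD proteins. IL-4Ralpha (Il4ra) pairs with the common gamma chain to bind IL-4 or with IL-13Ralpha1 (Il13ra1) to bind IL-4 or IL-13, and signals through STAT6 towards the alternative macrophage programme.

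Between 39282181 and 61949143 read pairs were counted per library, with a median of 45317217. The summed level of 8 macrophage markers lay between 9740 and 19152 CPM in every library (CPM are counts scaled to the library size with TMM factors). It was mostly Lyz2 (group means 8208 to 15376 CPM), and single markers differed between genotypes in either direction, such as Adgre1 in unstimulated cells (means 73.3 CPM in WT and 302 CPM in IRF5-/-) and Mertk after LPS (150 and 31.3 CPM). Summed levels of 9 T, B and NK cell markers were 0.728 to 3.44 CPM. Neutrophil markers summed to 197 to 371 CPM in WT and 1039 to 2591 CPM in IRF5-/- libraries, and mast cell and basophil markers to 8.06 to 15.7 and 43.2 to 73.2 CPM. The first sum was mostly Mmp8 (169 to 352 CPM in WT, 992 to 2563 CPM in IRF5-/-), while in unstimulated cells Ltf (means 6.91 and 8.31 CPM), Ngp (9.77 and 13.4 CPM) and Camp (1.17 and 1.47 CPM) were not called between genotypes and Mpo was near 0 in both. With LPS in WT, Ngp (mean 28.1 CPM), Ltf (15.1 CPM), Camp and Ly6g were called higher than unstimulated. Ly6g was below the level of the filter on low counts (0.221 CPM) in every WT unstimulated library. Cxcr2 went the other way (means 5.43 CPM unstimulated and 0.514 CPM with LPS), and Mmp8 was at 191 and 201 CPM. With LPS and defactinib Ngp was at 16.5 and Ltf at 11.3 CPM, with 0 of 8 neutrophil markers called for defactinib by edgeR. The mast cell and basophil sum was mostly Gata2 (3.27 and 32.3 CPM unstimulated) and Kit (6.96 and 17.2 CPM), with Tpsb2, Cma1 and Fcer1a at or near 0. The sum of 8 dendritic cell markers was 117 to 125 CPM in WT unstimulated, 381 to 494 CPM with LPS and 69.0 to 123 CPM with LPS and defactinib. It moved mostly through Ccr7 (means 36.0, 311 and 23.2 CPM), and Siglech and Xcr1 were near 0. Zbtb46 moved as the sum did (60.4, 91.3 and 25.2 CPM) and Clec9a the other way (9.45, 4.99 and 9.70 CPM). Dpp4 (6.65, 11.3 and 30.3 CPM), Flt3 (0.519, 2.11 and 2.16 CPM) and Cd209a (6.63, 5.85 and 2.87 CPM) followed neither course. In the IRF5-/- groups that sum was 124 to 170, 214 to 276 and 271 to 282 CPM. The part of these markers in the results was not tested. Irf5 itself was at 587 to 650 CPM in WT unstimulated and 335 to 397 CPM in IRF5-/- unstimulated libraries, and its ranges touched after LPS (434 to 475 against 345 to 435 CPM) and overlapped after LPS with defactinib (213 to 379 against 353 to 392 CPM). The whole-gene count of Irf5 therefore does not check the genotype label, and IRF5-/- names the libraries so labelled. Scaling by library size in place of TMM moved the median log2 fold change of all genes, farthest for LPS in WT (from -0.0045 to -0.38), and by 0.076 to 0.33 in size in the other 8 comparisons. It moved the share of higher calls from 54.5% to 31.4% (LPS in WT), 53% to 34.8% (LPS in IRF5-/-), 35.9% to 49.2% (defactinib in WT), 17.4% to 5.71% (defactinib in IRF5-/-), 54.4% to 38.1% (WT against IRF5-/- after LPS), 52% to 43.5% (unstimulated) and 48.8% to 55% (after LPS with defactinib). For the tests of the difference it moved from 64.5% to 44.7% (LPS) and 46.2% to 69% (defactinib). In RNA of whole cultures, fewer cells of a type and less RNA per cell cannot be told apart.

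The IRF5-/- LPS DMSO group was not uniform. Its replicates 1 and 2 were close to each other, with a chi-square of 2.33 per gene, while replicate 3 was at 441 and 425 from them, against 3.82 to 183 within the other groups. The noncoding RNA gene Gm26917 was at 26817 and 26679 CPM in replicates 1 and 2 and at 113 CPM in replicate 3. It was at 11392 to 41939 CPM in the 6 defactinib libraries and at 47.0 to 143 CPM in the other 9, so that replicates 1 and 2 carried this transcript at the level of the defactinib libraries. The mitochondrial share of the counts was 0.793% and 0.797% in replicates 1 and 2 and 0.514% in replicate 3, against 0.477% to 0.540% in IRF5-/- unstimulated and 0.835% to 0.926% in IRF5-/- defactinib libraries. In WT it was 1.05% to 1.26% with defactinib and 0.641% to 0.913% in the other groups. The part of these measures in the results was not tested. Whether the DMSO label holds for all 3 libraries is therefore in doubt, and values of this group are those of the libraries so labelled. For the members, most values that use the group are also given from replicates 1 and 2 and from replicate 3 alone, the last chosen after the data were seen. A fit with replicate 3 as the only library of its group takes its spread from the other groups and assumes that this library varies as they do, so each p and call given from replicate 3 has no replicate check in that group.

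In WT cells LPS raised Il10ra and lowered Tgfbr1, and with defactinib Il10ra and Il4ra were lower and Tgfbr1 higher. Il10 was called in 5 of the 9 comparisons, but it passed the filter on low counts only through libraries with LPS. Its 5 calls, the one between genotypes after LPS with defactinib included, are therefore a description and lend no support. The counts are also given without it. A gene was called at a false discovery rate (FDR) below 0.05 and a fold change over 2 in edgeR's quasi-likelihood test with Benjamini-Hochberg adjustment. After LPS in WT, 2 of the 8 genes were called higher and 1 lower, where 11.6% and 9.71% of all tested genes were. Without Il10 it was 1 and 1. With LPS in IRF5-/- cells, 1 gene, Il10, was called higher and 0 lower (all genes 7.07% and 6.28%). Defactinib in LPS-treated WT cells gave 1 higher and 3 lower calls (10.4% and 18.6%), 1 and 2 without Il10. The same treatment of IRF5-/- cells gave 0 calls (0.16% and 0.76%), with 0 of the 8 genes at an unadjusted p below 0.05 in edgeR and 0 calls by DESeq2 or limma-voom. With replicate 3 as the sole IRF5-/- LPS DMSO library, that comparison called 2 of the genes lower, in a fit that called 4.63% of all genes higher and 14.6% lower.

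WT against IRF5-/- gave 0 calls in unstimulated cells (all genes 3.8% higher and 3.51% lower in WT), with 3 genes at an unadjusted p below 0.05 in edgeR and 0 calls by DESeq2 or limma-voom. After LPS with DMSO, 1 gene was called higher in WT and 0 lower (14% and 11.8%). Without replicate 3 there were 4 calls (20.7% and 13.8% in that fit), and with it alone 0 (7.59% and 8.36%). After LPS with defactinib, 0 were called higher in WT and 2 lower (8.45% and 8.87%), 1 of them Il10. The test of whether the LPS effect differed between genotypes called 1 gene higher and 1 lower (6.33% and 3.49%), and the same test for defactinib 1 higher and 2 lower (10.5% and 12.3%), 1 of the latter Il10. LPS in WT, defactinib in WT, WT against IRF5-/- after LPS and both tests of the difference share the WT LPS DMSO libraries, and their values are given side by side. These shares over so few genes describe the members and set none of the comparisons apart from the rest of the transcriptome.

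**Figure D1:**
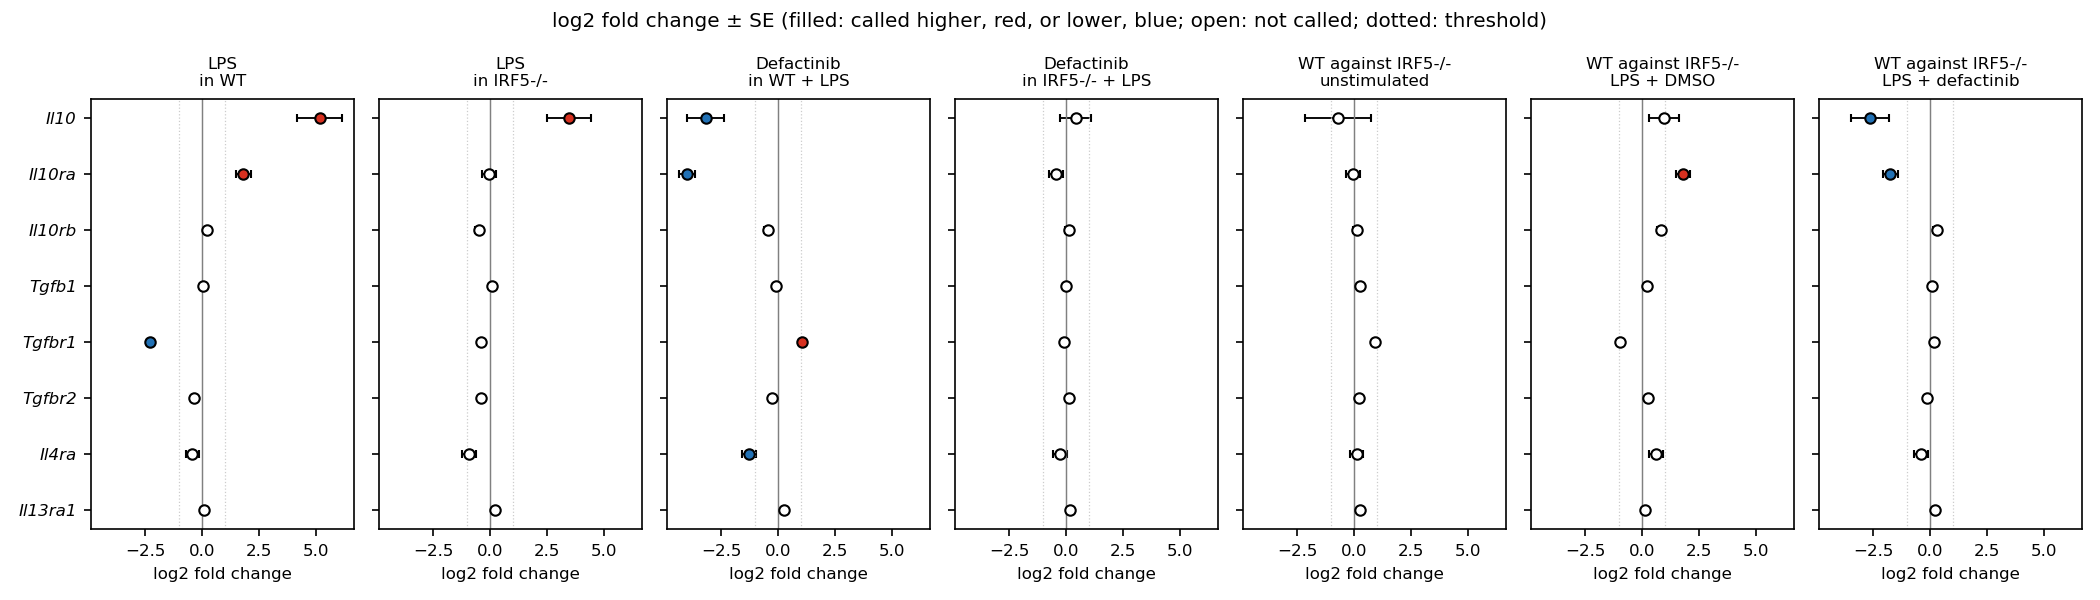
Each panel is 1 comparison, with the log2 fold change on the x axis, 1 gene per line, the SE as a bar and filled points for calls (red higher, blue lower). Il10ra is called in 4 of the 7 panels and Tgfb1, Tgfbr2, Il10rb and Il13ra1 in none.

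Levels between genes were compared per length, as CPM per kilobase of exon. Tgfb1 stood first in each of the 6 groups, with group means from 100.6 to 124 CPM per kb, and Il10 last, with means from 0.0048 to 0.243. In unstimulated WT cells the order below Tgfb1 was Tgfbr1 (60.2 ± 3.1), Il4ra (36.8 ± 1.6), Il10ra (27.3 ± 0.54), Il13ra1 (18.1 ± 0.82), Tgfbr2 (12.6 ± 0.58) and Il10rb (12.05 ± 0.49, all SD, n = 3), and only the last 2 overlapped. After LPS Il10ra (96.2 ± 5.3) moved to the second place, and Tgfbr1 (12.4 ± 2.0) to the sixth, where its libraries overlapped those of Il10rb and Tgfbr2. With LPS and defactinib Il10ra (6.06 ± 2.0) was seventh in WT. In IRF5-/- unstimulated cells Il4ra (33.9 ± 1.8), Tgfbr1 (31.2 ± 2.2) and Il10ra (28.4 ± 1.1) followed Tgfb1, and neighbours in this order overlapped.

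**Figure D2:**
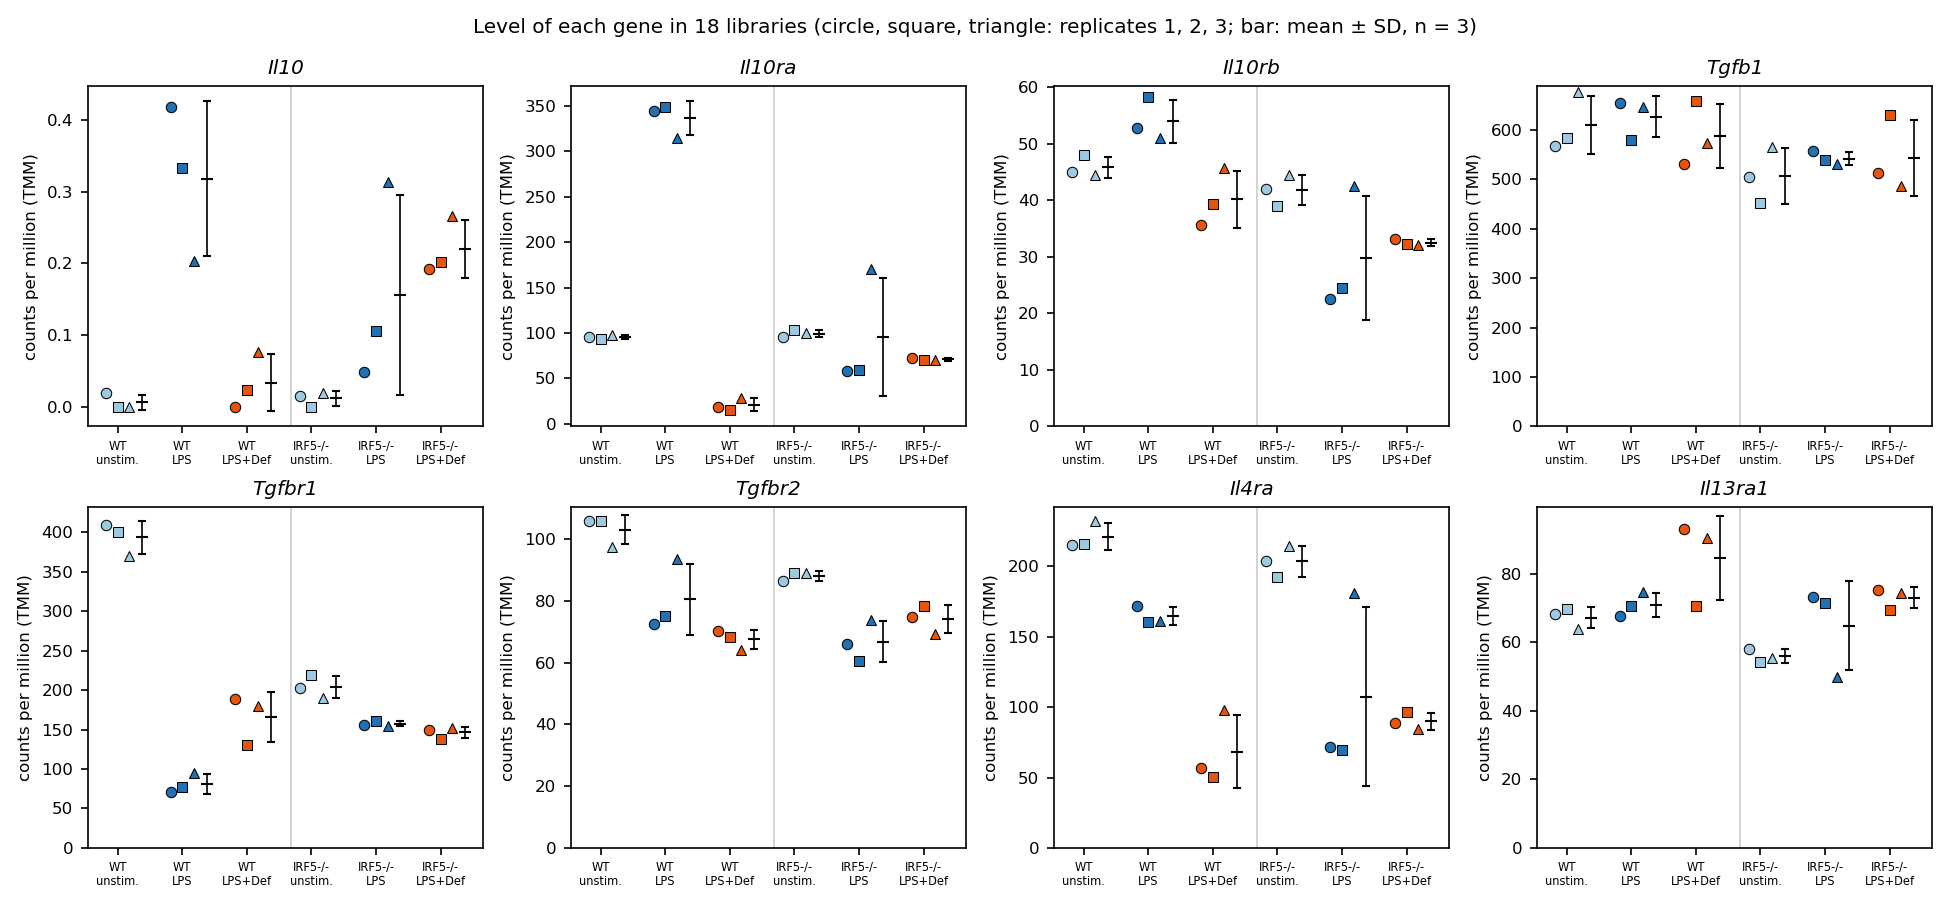
Level of each gene in CPM in the 18 libraries, by group on the x axis, with circles, squares and triangles for replicates 1, 2 and 3 and the mean ± SD (n = 3) beside them. Il10ra is at 315 to 349 CPM in WT LPS and 15.6 to 29.0 CPM in WT LPS with defactinib, and the triangle of IRF5-/- LPS stands apart for Il10, Il10ra, Il10rb, Il4ra and Il13ra1.

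Il10 (ENSMUSG00000016529, mm10 chr1:131019845-131024974, plus strand) was near the detection limit. WT unstimulated libraries held 1, 0 and 0 counts, WT LPS DMSO 18, 13 and 8, and WT LPS defactinib 0, 1 and 3. IRF5-/- unstimulated libraries held 1, 0 and 1 counts, IRF5-/- LPS DMSO 2, 4 and 16, and IRF5-/- LPS defactinib 11, 9 and 10. The WT LPS libraries were thus at 0.203 to 0.417 CPM, where a count of 0 allows up to 0.0507 to 0.0618 CPM per library in WT unstimulated cells (3 counts). The LPS groups of WT with and without defactinib did not overlap, and in IRF5-/- cells they did.

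From summed counts, Il10 was 51.7 times as abundant with LPS as without in WT cells (39 against 1 count, 95% exact interval 8.74 to 2092). For IRF5-/- cells the ratio was 14.1 (22 against 2 counts, 3.47 to 124). It was 6.34 from replicates 1 and 2 (6 against 2 counts, 1.13 to 64.3) and 26.1 from replicate 3 (16 against 2 counts, 6.15 to 234). These intervals cover counting error alone. In edgeR's fit, whose fold change depends on the prior count at such levels, the LPS effect in WT was 5.18 on the log2 scale (SE 0.99, adjusted p = 0.00054). For IRF5-/- cells it was 3.49 (SE 0.96, adjusted p = 0.0128), and 2.43 (adjusted p = 0.0635) without replicate 3, which is no longer a call, and 4.45 (adjusted p = 0.0117) from replicate 3. With no filter on low counts the LPS values were 5.15 (adjusted p = 0.000867) in WT and 3.47 (adjusted p = 0.0222) in IRF5-/- cells. The difference between the 2 LPS effects was 1.69 (SE 1.76, adjusted p = 0.522), 2.74 (adjusted p = 0.22) from replicates 1 and 2 and 0.73 (adjusted p = 0.844) from replicate 3.

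Il10 was lower with defactinib in LPS-treated WT cells: the level with DMSO was 9.91 times that with defactinib (39 against 4 counts, 95% exact interval 3.57 to 38.2), and the edgeR log2 fold change was -3.19 (SE 0.83, adjusted p = 0.00416). The IRF5-/- level with defactinib was 1.27 times that with DMSO (30 against 22 counts, 0.708 to 2.31), with a log2 fold change of 0.42 (SE 0.67, adjusted p = 0.741). That value was 1.48 from replicates 1 and 2 and -0.54 from replicate 3 of the DMSO group, neither called. The difference between the defactinib effects was -3.61 (SE 1.08, adjusted p = 0.0155), -4.67 (adjusted p = 0.00127) with replicates 1 and 2 and -2.64 (adjusted p = 0.0859) with replicate 3 alone. WT cells were below IRF5-/- cells after LPS and defactinib (-2.64, SE 0.85, adjusted p = 0.0236). This call was lost without IRF5-/- defactinib replicate 3 (adjusted p = 0.0661), WT defactinib replicate 1 (0.0860) or WT defactinib replicate 2 (0.0725). After LPS with DMSO the genotype difference was 0.97 (SE 0.65, adjusted p = 0.224), 2.02 from replicates 1 and 2 (adjusted p = 0.0228) and 0.0082 from replicate 3.

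Il10ra, the ligand-binding chain of the IL-10 receptor (ENSMUSG00000032089, mm10 chr9:45253837-45269149, minus strand), had the widest range in fold among the genes with more than a few counts. It was at 95.6, 93.6 and 97.4 CPM in WT unstimulated cells, 345, 349 and 315 CPM after LPS, and 18.9, 15.6 and 29.0 CPM after LPS with defactinib. The 3 WT groups did not overlap, and the defactinib libraries lay below the unstimulated ones. IRF5-/- unstimulated cells were at 95.3, 103 and 99.5 CPM and overlapped the WT ones. IRF5-/- LPS DMSO libraries were at 57.8, 58.9 and 171 CPM, so that 2 lay below and 1 above every unstimulated library. With defactinib the IRF5-/- libraries were at 73.0, 70.3 and 70.0 CPM, above the first 2 of these and below the third.

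LPS raised Il10ra in WT cells by 1.82 on the log2 scale (SE 0.32, edgeR adjusted p = 0.000325), a 3.52-fold rise. The IRF5-/- value was -0.05 (SE 0.31, adjusted p = 0.91). It was -0.77 from replicates 1 and 2 (SE 0.16, adjusted p = 0.000662) and 0.80 from replicate 3 (SE 0.20, adjusted p = 0.0278), both short of the fold threshold and opposite in sign. The difference between the LPS effects was 1.87 (SE 0.45, adjusted p = 0.0114), 2.58 from replicates 1 and 2 and 1.01 from replicate 3. Defactinib lowered Il10ra in WT cells 15.9-fold (log2 fold change -3.99, SE 0.35, adjusted p = 4.46e-07). For IRF5-/- cells the log2 fold change was -0.43 (SE 0.31, adjusted p = 0.43), 0.28 from replicates 1 and 2 (adjusted p = 0.306) and -1.28 from replicate 3 (adjusted p = 7.98e-05, called). The difference between these effects was -3.56 (SE 0.46, adjusted p = 3.08e-05), -4.27 from replicates 1 and 2 and -2.70 from replicate 3.

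Between genotypes Il10ra was 3.51-fold higher in WT after LPS with DMSO (1.81, SE 0.32, edgeR adjusted p = 0.00033). From replicates 1 and 2 it was 2.53, and replicate 3 gave 0.96 (adjusted p = 0.00314), under the fold threshold. After LPS with defactinib the order turned, and WT was 3.36-fold lower (-1.75, SE 0.32, adjusted p = 0.000642). In unstimulated cells the difference was -0.06 (SE 0.31, adjusted p = 0.956).

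Il10rb, the shared signalling chain (ENSMUSG00000022969, mm10 chr16:91406164-91425834, plus strand), shares exon sequence with Gm21970 on the same strand, so read pairs in the overlap may have gone uncounted or to the other gene. It ranged from 22.6 to 58.3 CPM and was not called in any of the 9 comparisons with all libraries. WT libraries were at 45.1, 48.0 and 44.5 CPM unstimulated, 52.8, 58.3 and 51.0 CPM with LPS, and 35.6, 39.3 and 45.7 CPM with LPS and defactinib. IRF5-/- libraries were at 42.0, 39.0 and 44.4 CPM unstimulated, 22.6, 24.4 and 42.5 CPM with LPS, and 33.2, 32.3 and 32.1 CPM with LPS and defactinib. Replicate 3 of IRF5-/- LPS DMSO sat among the unstimulated libraries while replicates 1 and 2 were the lowest of all 18. WT against IRF5-/- after LPS was 0.85 (SE 0.18, edgeR adjusted p = 0.000984). The value from replicates 1 and 2 was 1.20 (adjusted p = 3.15e-08, called) and from replicate 3 it was 0.33 (adjusted p = 0.0776). The difference between the LPS effects was 0.72 (adjusted p = 0.0572), 1.06 from replicates 1 and 2 (adjusted p = 7.05e-06, called) and 0.19 from replicate 3 (adjusted p = 0.552). The LPS value in IRF5-/- cells was -0.83 from replicates 1 and 2 (adjusted p = 2.75e-06) and 0.039 from replicate 3. The defactinib value was 0.47 (adjusted p = 0.0108) and -0.40 from the same subsets, under the fold threshold. Between the defactinib effects of the genotypes the difference was -0.55 (SE 0.25, edgeR adjusted p = 0.0959). It was -0.89 from replicates 1 and 2 (adjusted p = 3e-05) and -0.006 from replicate 3.

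**Figure D3:**
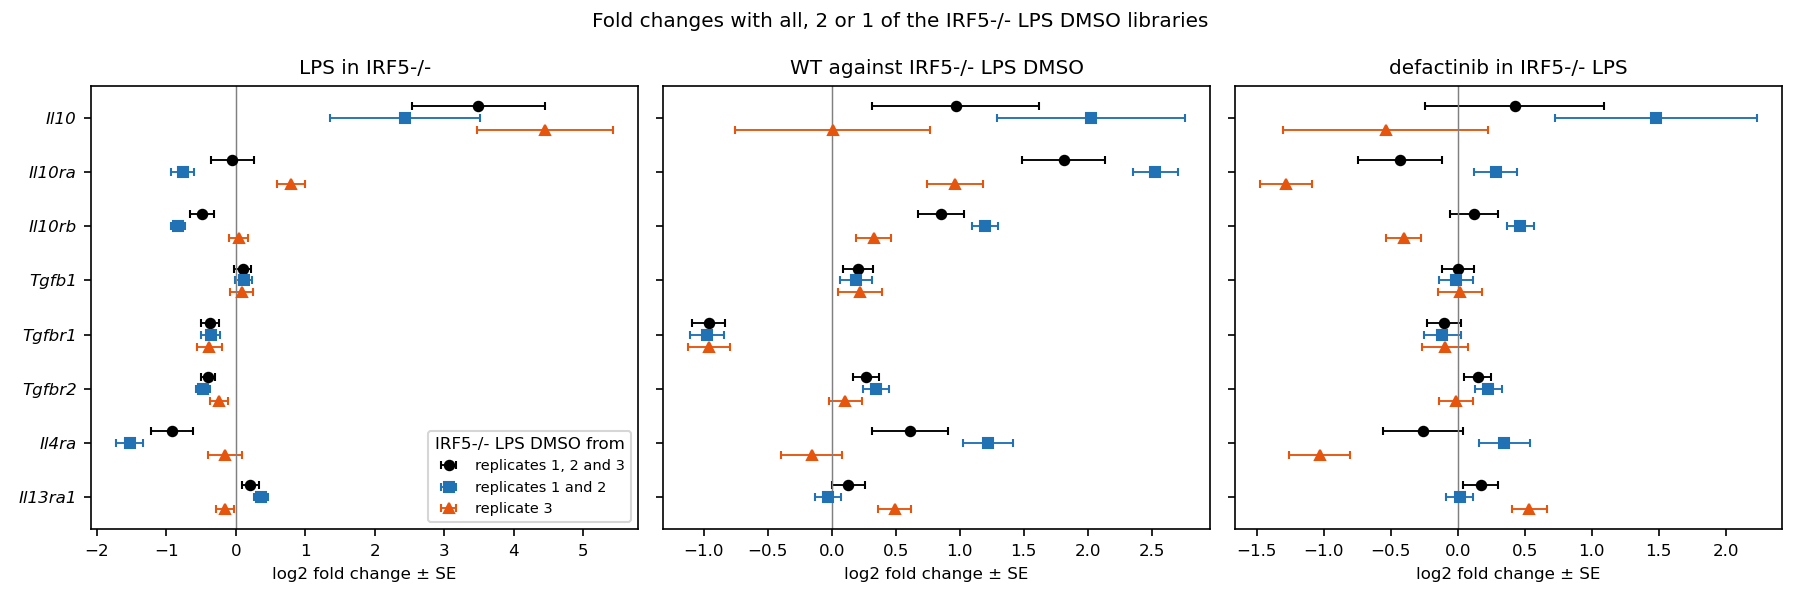
Log2 fold change ± SE on the x axis for the 8 genes in the 3 comparisons that use IRF5-/- LPS DMSO, from all 3 libraries (black circles), replicates 1 and 2 (blue squares) or replicate 3 (orange triangles). The values for Tgfb1 and Tgfbr1 lie together, and those for Il10ra lie on opposite sides of 0 for LPS in IRF5-/-.

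Tgfb1, the TGF-beta1 ligand gene (ENSMUSG00000002603, mm10 chr7:25687002-25705077, plus strand), stayed within 451 to 678 CPM over all 18 libraries. Its ranges were 568 to 678 CPM in WT unstimulated, 579 to 655 CPM in WT LPS and 531 to 659 CPM in WT LPS defactinib libraries. The IRF5-/- ranges were 451 to 565 CPM unstimulated, 531 to 558 CPM with LPS and 486 to 631 CPM with LPS and defactinib. Treatment groups of the same genotype overlapped. Over the 9 comparisons the log2 fold changes ran from -0.10 to 0.27 with SEs of 0.12 to 0.17 and edgeR adjusted p from 0.147 to 0.992. The farthest from 0 was WT against IRF5-/- in unstimulated cells (0.27, SE 0.12, adjusted p = 0.156). From replicates 1 and 2 or replicate 3, LPS in IRF5-/- gave 0.11 and 0.081 and WT against IRF5-/- after LPS 0.19 and 0.22.

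Tgfbr1, the type I receptor kinase (ENSMUSG00000007613, mm10 chr4:47353222-47414931, plus strand), moved opposite to Il10ra in the WT comparisons. Its RNA was at 409, 401 and 370.4 CPM in WT unstimulated cells, 70.5, 76.6 and 95.0 CPM after LPS, and 189, 129.8 and 179.9 CPM after LPS with defactinib. The 3 groups did not overlap, and the defactinib libraries lay between the other 2. IRF5-/- libraries were at 202, 219 and 190.4 CPM unstimulated, 156, 161 and 155 CPM with LPS, and 149, 138 and 152 CPM with LPS and defactinib. The spread of IRF5-/- LPS DMSO was small for this gene, and replicate 3 did not stand apart.

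The first RefSeq promoter windows (GRCm38.p6, plus strand, the 250 bases before the annotated start) are shown for Tgfbr1, which LPS lowered in WT cells, and for Tgfb1, which was not called in any comparison. Capitals mark matches to the motifs searched on both strands. These were TTCNNNGAA (STAT), GAAANNGAA (IRF), TGANTCA (AP-1), TGACGTCA (CRE), GGGCGG (GC box) and the NF-kB motif, found in 7.02%, 7.13%, 6.75%, 1.55%, 32.7% and 7.25% of the 32851 windows in the RefSeq table.
Tgfbr1 chr4:47352972-47353221: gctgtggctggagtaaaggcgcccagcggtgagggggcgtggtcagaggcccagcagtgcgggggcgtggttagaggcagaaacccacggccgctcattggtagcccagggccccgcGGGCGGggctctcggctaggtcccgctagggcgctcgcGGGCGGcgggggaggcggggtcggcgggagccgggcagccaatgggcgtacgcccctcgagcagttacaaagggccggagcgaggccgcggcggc
Tgfb1 chr7:25686752-25687001: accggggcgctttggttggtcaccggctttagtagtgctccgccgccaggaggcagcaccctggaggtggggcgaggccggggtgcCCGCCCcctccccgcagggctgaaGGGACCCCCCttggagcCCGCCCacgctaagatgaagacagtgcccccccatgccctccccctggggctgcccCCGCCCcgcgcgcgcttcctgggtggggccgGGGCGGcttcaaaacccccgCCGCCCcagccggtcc
The Tgfbr1 window held 2 GC box matches and no other motif, and the Tgfb1 window 5 GC box matches and 1 NF-kB match. Both were rich in G and C (74.8% and 75.2%, against a median of 52.4% over all windows). RefSeq gave 6 windows for 5 of the 8 genes, a second one for Tgfbr1 (start 47385966), and none of the 6 held a match to the STAT, IRF, AP-1 or CRE letters. A match describes the letters and is no evidence of binding. Il10, Il10ra and Il10rb had no entry.

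LPS lowered Tgfbr1 4.87-fold in WT cells (log2 fold change -2.29, SE 0.13, edgeR adjusted p = 6.76e-09). The IRF5-/- value was -0.37 (SE 0.13, adjusted p = 0.0331), short of the fold threshold, and it was -0.36 from replicates 1 and 2 and -0.38 from replicate 3. The difference between the LPS effects was -1.91 (SE 0.18, adjusted p = 1.95e-05), with -1.92 and -1.91 from the same subsets. Defactinib raised Tgfbr1 in LPS-treated WT cells 2.06-fold (1.04, SE 0.13, adjusted p = 9.33e-06), just beyond the fold threshold. It fell short of that threshold without WT LPS DMSO replicate 1 (0.97), WT defactinib replicate 1 (0.98) or WT defactinib replicate 3 (0.99). In IRF5-/- cells the defactinib value was -0.10 (SE 0.13, adjusted p = 0.662), -0.12 from replicates 1 and 2 and -0.097 from replicate 3. The difference between the effects was 1.15 (SE 0.18, adjusted p = 0.000181), 1.16 from replicates 1 and 2 and 1.15 from replicate 3.

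The genotypes differed in Tgfbr1 by less than the fold threshold, in opposite directions before and after LPS. WT was 1.93 times IRF5-/- in unstimulated cells (0.95, SE 0.13, edgeR adjusted p = 0.000101). IRF5-/- was 1.95 times WT after LPS with DMSO (-0.96, SE 0.13, adjusted p = 2.7e-05), with -0.97 from replicates 1 and 2 and -0.96 from replicate 3. Both sets of libraries were apart. The first became a call without IRF5-/- unstimulated replicate 2 (1.00, adjusted p = 0.000467), and the second without WT LPS DMSO replicate 3 (-1.11, adjusted p = 1.9e-05). After LPS with defactinib the value was 0.18 (SE 0.13, adjusted p = 0.283).

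Tgfbr2, the type II receptor (ENSMUSG00000032440, mm10 chr9:116084293-116175360, minus strand), changed little beside Tgfbr1. It was at 97.5 to 106 CPM in WT unstimulated, 72.5 to 93.6 CPM in WT LPS and 63.9 to 70.0 CPM in WT LPS defactinib libraries, groups that did not overlap. IRF5-/- libraries were at 86.3 to 89.1, 60.5 to 73.9 and 69.3 to 78.4 CPM in the same order. The LPS values were -0.36 (SE 0.10, edgeR adjusted p = 0.00946) in WT and -0.40 (SE 0.10, adjusted p = 0.00879) in IRF5-/- cells, both under the fold threshold. From replicates 1 and 2 the second was -0.48, and from replicate 3 -0.24 (adjusted p = 0.383). The difference between them was 0.04 (SE 0.14, adjusted p = 0.86), 0.12 and -0.12 from the same subsets. WT against IRF5-/- after LPS was 0.27 (SE 0.10, edgeR adjusted p = 0.0365), 0.35 from replicates 1 and 2 (adjusted p = 0.00636) and 0.10 from replicate 3. Defactinib gave -0.25 (SE 0.10, adjusted p = 0.0425) in WT cells. The IRF5-/- value was 0.15 (SE 0.10, adjusted p = 0.388), 0.23 from replicates 1 and 2 and -0.012 from replicate 3. The difference between the defactinib effects was -0.40 (SE 0.14, adjusted p = 0.0367), -0.48 from replicates 1 and 2 (adjusted p = 0.00588) and -0.23 from replicate 3. These values were under the fold threshold.

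Il4ra, the chain shared by the IL-4 and IL-13 receptors (ENSMUSG00000030748, mm10 chr7:125552120-125579474, plus strand), overlaps the antisense gene Gm44876, and counting used the strand. WT libraries were at 215, 216 and 232 CPM unstimulated, 172, 161 and 161 CPM with LPS, and 57.0, 50.2 and 98.0 CPM with LPS and defactinib. The 3 WT groups did not overlap. IRF5-/- libraries were at 204, 193 and 215 CPM unstimulated, 71.5, 69.8 and 181 CPM with LPS, and 88.5, 96.4 and 84.6 CPM with LPS and defactinib. Replicates 1 and 2 of IRF5-/- LPS DMSO lay below the IRF5-/- defactinib libraries, and replicate 3 above every WT LPS library.

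Defactinib lowered Il4ra in WT cells 2.41-fold (log2 fold change -1.27, SE 0.30, edgeR adjusted p = 0.00229). The IRF5-/- value was -0.26 (SE 0.30, adjusted p = 0.634), 0.35 from replicates 1 and 2 (adjusted p = 0.285) and -1.03 from replicate 3 (adjusted p = 0.00218, called). The difference between the genotypes' defactinib effects was -1.01 (SE 0.42, adjusted p = 0.072), -1.62 from replicates 1 and 2 (adjusted p = 5.41e-05, called) and -0.22 from replicate 3 (adjusted p = 0.631). It was also called without WT defactinib replicate 3 (-1.33, adjusted p = 0.0166), by DESeq2 (-1.02), by limma-voom (-1.22) and with a replicate block (-1.17). LPS gave -0.43 (SE 0.30, adjusted p = 0.276) in WT and -0.92 (SE 0.30, adjusted p = 0.0263) in IRF5-/- cells. The latter was -1.53 from replicates 1 and 2 (adjusted p = 5.37e-06, called) and -0.15 from replicate 3 (adjusted p = 0.827). WT against IRF5-/- after LPS was 0.61 (SE 0.30, adjusted p = 0.0939), 1.22 from replicates 1 and 2 (called) and -0.16 from replicate 3. In unstimulated cells that comparison gave 0.12 (SE 0.29, adjusted p = 0.877). Between the LPS effects of the genotypes the difference was 0.50 (SE 0.42, adjusted p = 0.421), 1.10 from replicates 1 and 2 (adjusted p = 0.00195, called) and -0.28 from replicate 3 (adjusted p = 0.644).

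Il13ra1, the partner chain of Il4ra for IL-13 (ENSMUSG00000017057, mm10 chrX:36112110-36171259, plus strand), was not called in any of the 9 comparisons. WT libraries were at 63.8 to 69.6 CPM unstimulated, 67.7 to 74.7 CPM with LPS and 70.6 to 93.1 CPM with LPS and defactinib. IRF5-/- libraries were at 54.4 to 58.1 CPM unstimulated, 73.3, 71.4 and 49.8 CPM with LPS, and 69.5 to 75.2 CPM with LPS and defactinib. Here replicate 3 of IRF5-/- LPS DMSO was the lowest of all 18 libraries. Log2 fold changes ran from -0.13 to 0.26 with SEs of 0.13 to 0.18 (edgeR adjusted p from 0.102 to 0.748). LPS in IRF5-/- cells gave 0.37 from replicates 1 and 2 (adjusted p = 0.00461) and -0.15 from replicate 3 (adjusted p = 0.608), and WT against IRF5-/- after LPS -0.028 (adjusted p = 0.818) and 0.49 (adjusted p = 0.00784). Defactinib in IRF5-/- cells gave 0.014 and, from replicate 3, 0.53 (adjusted p = 0.00363).

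Since each receptor needs 2 chains, the ratio of the paired chains per length was computed in each library. Il10ra to Il10rb was 2.12 to 2.38 in WT unstimulated, 6.53 to 7.10 in WT LPS and 0.433 to 0.692 in WT LPS defactinib libraries. In IRF5-/- cells it was 2.44 to 2.87 unstimulated, 2.78, 2.62 and 4.37 with LPS, and 2.37 to 2.39 with LPS and defactinib. Only in WT LPS defactinib was the Il10rb level above that of Il10ra in these data. Tgfbr1 to Tgfbr2 was 4.74 to 4.85, 1.22 to 1.28 and 2.38 to 3.53 in the 3 WT groups, and 2.21 to 3.33 over all IRF5-/- libraries. Il4ra to Il13ra1 was 1.92 to 2.25, 1.34 to 1.57 and 0.379 to 0.669 in the WT groups. It was 2.17 to 2.39 in IRF5-/- unstimulated cells, 0.603, 0.604 and 2.25 with LPS, and 0.703 to 0.858 with LPS and defactinib. The WT groups were apart for each of the 3 ratios. No test was made of the ratios, which are RNA levels and not receptor numbers.

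**Figure D4:**
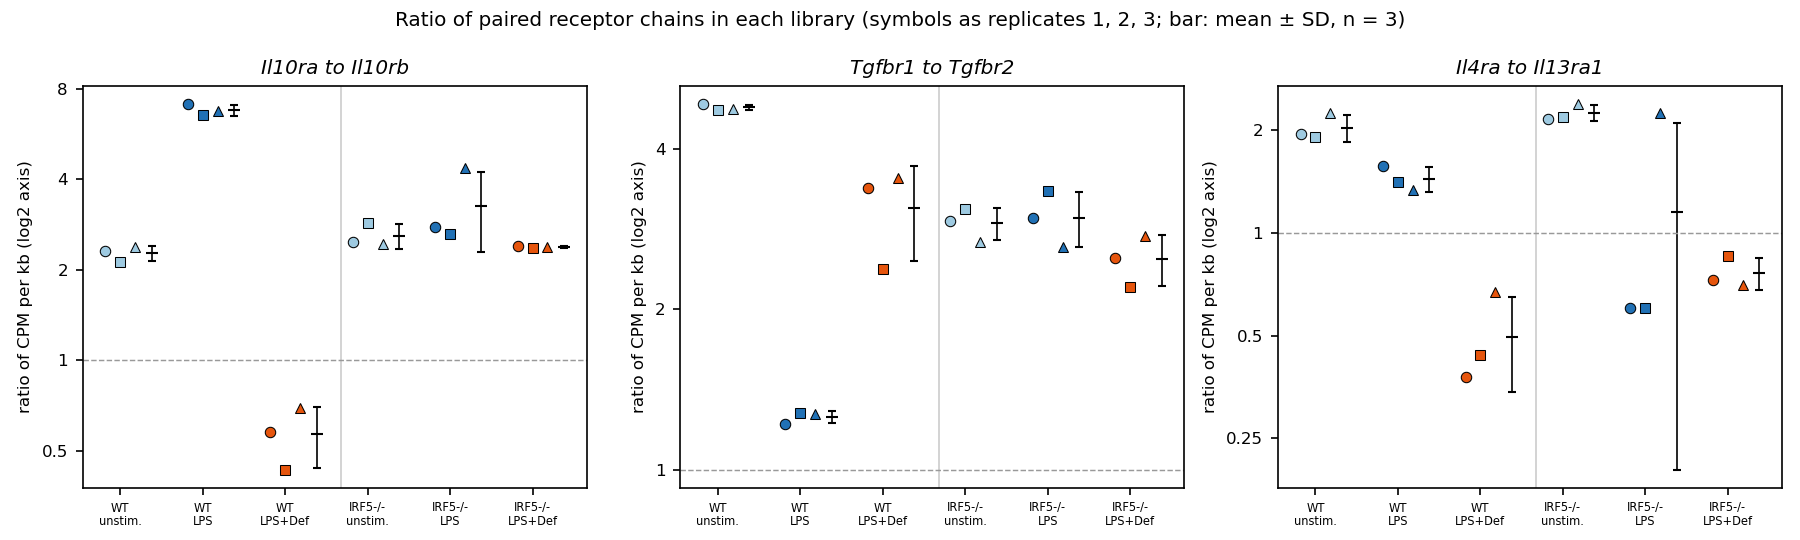
Ratio of CPM per kb of the paired receptor chains in each library, on a log2 axis, by group on the x axis, with symbols for replicates 1, 2 and 3 and the mean ± SD (n = 3). The Il10ra to Il10rb ratio of WT cells goes from 2.12 to 2.38 unstimulated to 6.53 to 7.10 with LPS and 0.433 to 0.692 with defactinib.

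The wider pathways were read from 4 lists, of which 16 of 21 IL-10 family and signalling genes, 29 of 30 TGF-beta genes, 10 of 12 IL-4 and IL-13 signalling genes and 21 of 22 macrophage target genes of IL-4 and IL-13 were tested. Jak1 and Tyk2 are in 2 lists. After LPS in WT cells the IL-10 list had 8 genes called higher and 1 lower, with a median log2 fold change of 1.13 where that of all tested genes was -0.0045. Of all tested genes 11.6% were called higher and 9.71% lower. Some list genes were below the level of the filter (0.221 CPM) in every library of the lower of the compared groups, so that their call follows in part from their having been tested, and counts are also given without them. For LPS in WT these were 7 and 1 in the IL-10 list, without Il19, and 9 and 3 of the TGF-beta list. Il19, a cytokine of the IL-10 family, rose from at most 0.0187 CPM to 0.330 to 0.417 CPM, and Socs3, the STAT3-induced feedback inhibitor, rose by 2.73 (SE 0.31, edgeR adjusted p = 5.55e-06). Il21r, which encodes the IL-21 receptor and not a receptor of the IL-10 family, fell by 2.78 (SE 0.27, adjusted p = 8.84e-07). In the TGF-beta list 10 genes were higher and 4 lower (median 0.16). Itgb8, an integrin chain that activates latent TGF-beta, rose by 5.62 (SE 0.67, adjusted p = 8.93e-06). Of the inhibitory SMADs, Smad7 was lower (-1.498), and Smad6 was at 0.562 to 0.693 CPM unstimulated and at 0.0512 to 0.139 CPM with LPS, below the level of the filter in that group and left out of the second count. The IL-4 and IL-13 signalling list had 1 call, Irs2 (-1.05), and the target list 1 higher, Ccl22 (2.16), and 4 lower, led by the transcription factors Egr2 (-3.19) and Klf4 (-3.02).

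Defactinib in LPS-treated WT cells gave 0 higher and 9 lower calls in the IL-10 list (median -1.29, all genes 0.086), where 10.4% and 18.6% of all tested genes were called. Without Il19 and Il22, below the filter's level in all WT defactinib libraries, it was 0 and 7 (median -0.92). Il19 fell back to at most 0.0241 CPM, and Il22, the other gene named by the rule, was at 0 to 0.102 CPM with DMSO and at 0 counts in the 3 defactinib libraries. Its fitted fold change depends on the prior count. Among genes with higher counts Bcl3, an IkappaB family member induced by IL-10, fell by 3.67 (SE 0.41, edgeR adjusted p = 3.67e-06), and was chosen after its values were seen. In the TGF-beta list 3 genes were higher and 12 lower (median -0.32), or 2 and 11 without such genes. Itgb8 fell by 5.26 (SE 0.66, adjusted p = 1.24e-05) and Furin, the protease that processes the TGF-beta precursor, by 3.22 (SE 0.24, adjusted p = 6.2e-08), while Ltbp2 rose by 1.14. Smad6, called higher and left out of the second count, was at 0.0512 to 0.139 CPM with DMSO and 0.192 to 0.437 CPM with defactinib. Socs1, the feedback inhibitor of IL-4 signalling, fell by 4.85 (SE 0.87, adjusted p = 0.000287) as the 1 call of its list. Of the targets, Ccl24 rose by 1.62 and Irf4 fell by 4.21.

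In IRF5-/- cells LPS gave 1 higher and 3 lower calls in the IL-10 list, 6 and 2 in the TGF-beta list, 0 and 0 in IL-4 and IL-13 signalling and 1 and 2 among the targets. The medians of the 4 lists were 0.15, 0.14, 0.13 and 0.17 (all genes 0.0063, with 7.07% called higher and 6.28% lower). Replicates 1 and 2 gave 1 and 3, 7 and 5, 0 and 3, and 1 and 5 (all genes 9.64% and 16.6% in that fit), and replicate 3 gave 1 and 0, 5 and 0, 0 and 0, and 1 and 0 (2.66% and 0.0419%). Socs3 rose by 3.47 (SE 0.32, edgeR adjusted p = 7.07e-06), and Maf, Il21r and Sbno2 fell by 1.26, 1.09 and 1.08. Itgb8 rose by 2.79, and Smad6 fell by 1.39 and Tgfbr3 by 1.07. Ccl22 rose by 1.18, and Ppargc1b and Klf4 fell by 1.51 and 1.43. Of these, Socs3 (3.85 and 2.12), Itgb8 (1.28 and 3.99) and Ccl22 (1.13 and 1.31) were called both from replicates 1 and 2 and from replicate 3. Itgb8 was at 2.45 to 18.4 CPM in the IRF5-/- LPS DMSO group. From replicates 1 and 2 Maf was at -2.44, Klf4 at -2.07, Ppargc1b at -2.03, Sbno2 at -1.86, Smad6 at -1.81, Tgfbr3 at -1.499 and Il21r at -1.38, all called, and from replicate 3 the 7 lay between -0.82 and -0.17 and were not called. Defactinib in these cells gave 1 call over the 4 lists (all genes 0.16% higher and 0.76% lower), Thbs1, an activator of latent TGF-beta, which rose by 1.05 (SE 0.24, adjusted p = 0.034), 1.20 from replicates 1 and 2 (adjusted p = 0.0183) and 0.78 from replicate 3 (adjusted p = 0.0999, not called). Replicate 3 as the comparison gave 2 higher and 3 lower calls in the IL-10 list, 3 and 4 in the TGF-beta list, 0 and 3 in IL-4 and IL-13 signalling and 1 and 2 among the targets (all genes 4.63% and 14.6% in that fit), and replicates 1 and 2 gave 2 higher in the IL-10 list and 1 in the TGF-beta list (0.611% and 0.842%).

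**Figure D5:**
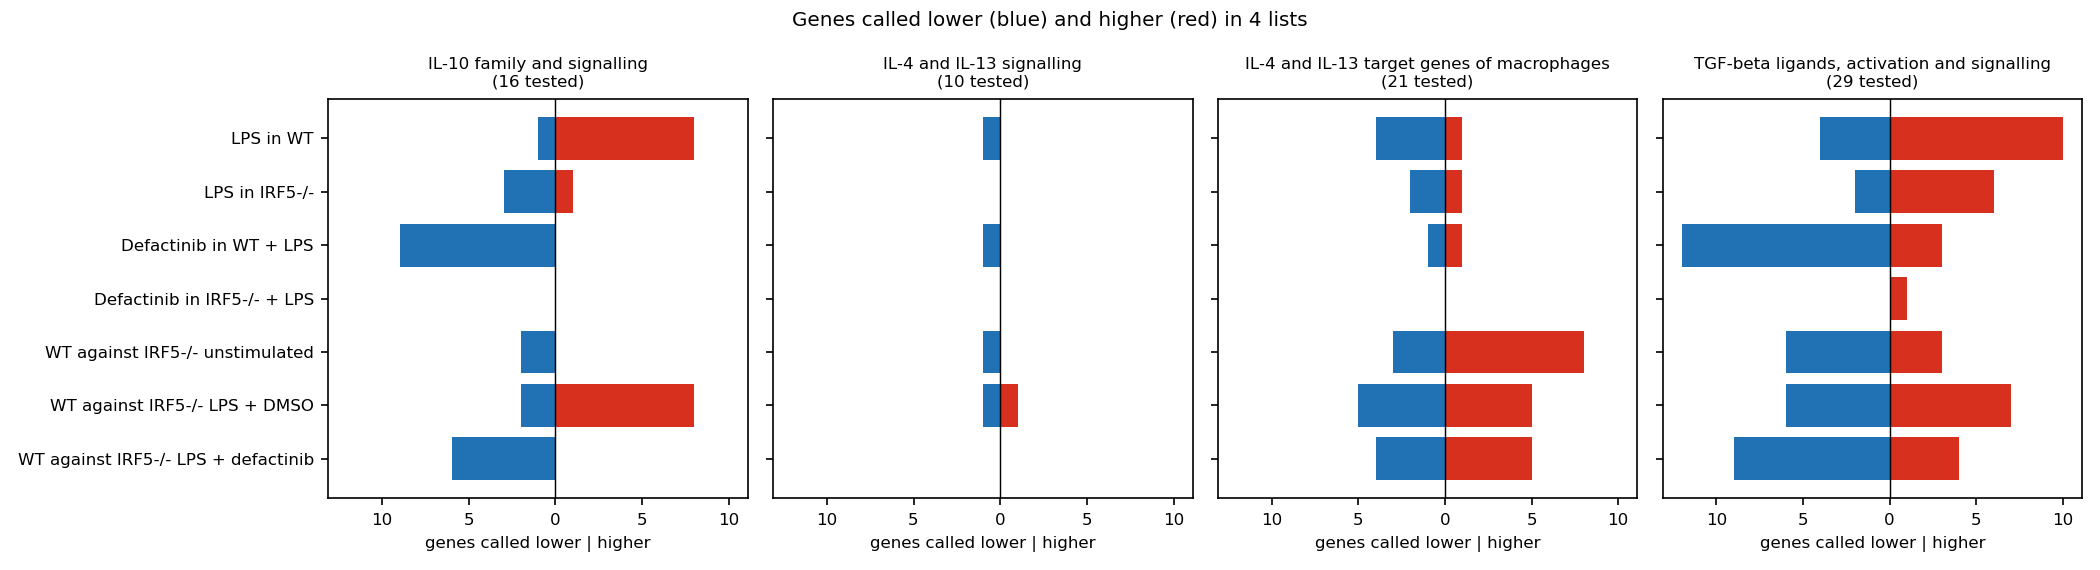
Number of genes called lower (blue, left) and higher (red, right) on the x axis in each of 7 comparisons for the 4 pathway lists. In WT cells the IL-10 list has 8 higher calls with LPS and 9 lower calls with defactinib, against 1 and 0 in IRF5-/- cells, where the shares of all genes are 11.6% and 18.6% in WT and 7.07% and 0.76% in IRF5-/- cells, and replicate 3 as the sole IRF5-/- LPS DMSO library gives 3 lower calls with defactinib. Each of the WT counts is 7 without the genes below the level of the filter in every library of the lower group (Il19, and Il22 for defactinib).

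In unstimulated cells the IL-10 list had 2 genes lower in WT, the TGF-beta list 3 higher and 6 lower, IL-4 and IL-13 signalling 1 lower and the targets 8 higher and 3 lower (medians 0.068, 0.18, -0.23 and 0.41, all genes -0.011, with 3.8% called higher and 3.51% lower). Il22 and Il13 were below the level of the filter in every WT library and Cd209e in every IRF5-/- library, and without them the IL-10 list had 1 lower, IL-4 and IL-13 signalling 0 by edgeR and the targets 7 higher and 3 lower. Il22 was at 0 to 0.0206 CPM in WT and 1.85 to 2.46 CPM in IRF5-/- libraries, and Maf was 2.13 lower (SE 0.47, edgeR adjusted p = 0.00522). Il13, a ligand of the Il4ra and Il13ra1 receptor, was at 0 to 0.0187 CPM in WT and 0.374 to 0.577 CPM in IRF5-/-. Retnla, a marker of alternative activation, was at 0.131 to 0.288 against 18.9 to 24.7 CPM. Cd209e was at 0.227 to 0.490 against 0 to 0.0192 CPM. Cdh1 (1.88) was higher in WT, as were Furin (1.64) and Acvrl1 (1.55), while Smad6 (-2.72) and Tgfb3 (-2.62) were lower. Of the tested markers, 3 of 8 for neutrophils (Ly6g, Mmp8 and Retnlg) were called higher in IRF5-/- in the same comparison. So were 2 of 5 for mast cells and basophils (Gata2 and Kit). Ly6g and Retnlg were below the level of the filter in every WT library, and without such genes the neutrophil count was 1 of 5. The part of these markers in the differences was not tested.

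After LPS with DMSO the IL-10 list had 8 genes higher in WT and 2 lower, the TGF-beta list 7 and 6, IL-4 and IL-13 signalling 1 and 1, and the targets 5 and 5 (medians 0.70, 0.45, -0.071 and 0.34, all genes -0.047, with 14% called higher and 11.8% lower). Without genes below the level of the filter in the lower group they were 7 and 1, 5 and 4, 1 and 0, and 5 and 5. Replicates 1 and 2 gave 9 and 2, 10 and 5, 1 and 0, and 4 and 5 (all genes 20.7% and 13.8% in that fit), and replicate 3 gave 5 and 2, 6 and 6, 0 and 1, and 2 and 5 (7.59% and 8.36%). Il19 was at 0.330 to 0.417 CPM in WT and 0 to 0.0587 CPM in IRF5-/- libraries, and Il22 at 0 to 0.102 against 1.46 to 4.17 CPM. Il20rb was 2.08 higher and Il21r (-1.91) lower in WT. Itgb8 was 3.95 higher (SE 0.61, edgeR adjusted p = 0.000112) and Furin 2.59, with Tgif2 (-2.66) lower. Smad6 was at 0.0512 to 0.139 CPM in WT, below the level of the filter, and at 1.07 to 2.35 CPM in IRF5-/- libraries. Socs1 (2.09) was higher, and Il13 was called lower with ranges that overlapped, at 0.0256 to 0.153 against 0.0969 to 1.35 CPM. Mrc1, the mannose receptor, was 2.48 higher (SE 0.24, adjusted p = 1.5e-06) and Clec7a 1.21, with Retnla (-5.46) lower. Socs1 was at 3.26 to 65.5 CPM in the IRF5-/- group, and its difference was 4.75 from replicates 1 and 2 (adjusted p = 2.94e-09) and 0.66 from replicate 3 (adjusted p = 0.129, not called). Clec7a was 1.44 and 0.82, the second under the fold threshold. From replicate 3 the Il19 difference was not called (adjusted p = 0.071), and from replicates 1 and 2 that of Il13 was not (adjusted p = 0.471). Calls from both subsets were Itgb8 (5.45 and 2.74), Furin (3.06 and 1.92), Il20rb (2.30 and 1.71), Mrc1 (2.65 and 2.16), Il21r (-1.62 and -2.38), Tgif2 (-3.06 and -1.19) and Retnla (-5.67 and -4.83). Smad6 and Il22 were also called from both, but were below the level of the filter in every WT LPS DMSO library, so that their calls lend no support. Here 4 of 8 tested neutrophil markers (Cxcr2, Ly6g, Mmp8 and Retnlg) and 2 of 5 of mast cells and basophils (Gata2 and Prss34) were called higher in IRF5-/-. Without Retnlg, below the level of the filter in every WT LPS DMSO library, the neutrophil count was 3 of 7. The part of these markers was not tested. Cxcr2 was at 0.194 to 6.24 CPM in IRF5-/- and overlapped WT (0.394 to 0.661 CPM).

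After LPS with defactinib the IL-10 list had 0 higher and 6 lower, the TGF-beta list 4 and 9, IL-4 and IL-13 signalling 0 and 0, and the targets 5 and 4 (medians -0.67, -0.71, -0.10 and 0.053, all genes 0.025, with 8.45% called higher and 8.87% lower). Without Il22, Ltbp4 and Cd209e, below the level of the filter in the lower group, the first was 0 and 5, the second 3 and 9 and the last 4 and 4. Il22 was at 0 counts in WT and at 4.01 to 4.61 CPM in IRF5-/- libraries, and Bcl3 was 2.36 lower in WT (SE 0.39, edgeR adjusted p = 0.000215). Ltbp4 (2.65) and Ltbp2 (1.70) were higher and Thbs1 (-3.44) and Smad6 (-2.70) lower. Cd209e was at 0.0257 to 0.361 CPM in WT and at 0 counts in IRF5-/- libraries. Cdh1 (1.61) was higher and Retnla (-4.39) lower. Of the tested markers, 1 of 8 for neutrophils (Mmp8, means 263 CPM in WT and 2493 CPM in IRF5-/-) and 1 of 5 for mast cells and basophils (Gata2, 0.629 and 33.9 CPM) were called higher in IRF5-/-, and their part was not tested.

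The genes whose log2 CPM followed each member most closely over the 18 libraries were sought among the 8454 or 8455 other tested genes whose log2 CPM averaged 3 or more. Pearson's r describes these libraries, which share 6 conditions, and carries no test. For Il10 they were Mapkapk2 (0.944) and Cd14 (0.938), for Il10ra Urgcp (0.989) and N4bp1 (0.987), and for Il10rb Slc31a2 (0.948) and Naip2 (0.948). For Tgfb1 they were Crlf2 (0.894) and Scand1 (0.891), for Tgfbr1 Foxred2 (0.964) and Acap3 (0.932), and for Tgfbr2 Rell1 (0.924) and Rusc2 (0.912). Il4ra followed Snapc2 (0.985) and Cebpg (0.985), and Il13ra1 followed Itgax (0.946) and Calu (0.936). Among the members themselves r was highest between Il4ra and Tgfbr2 (0.792) and lowest between Il10 and Tgfbr1 (-0.774).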

How the data were processed

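The authors deposited 1 table of raw counts of read pairs per gene without normalization for 18 libraries. Their methods, the submitters' processing notes and the header name STAR (version not given in the sources used here) for alignment to mm10 and featureCounts 1.6.3 for uniquely mapped pairs, reverse stranded, per Ensembl gene; the study tested with DESeq2. Of 50600 identifiers, 50376 matched a symbol in the reference's gene name table. The members and gene lists were chosen with earlier results of these data known. Counts were fitted in edgeR 4.0.16 (R 4.3.3): TMM, filterByExpr, robust quasi-likelihood F test, two-sided, 1 mean per group over all 18 libraries, no replicate block, Benjamini-Hochberg adjustment over 15663 genes. The SE is the log2 fold change divided by the square root of F. The series' text calls the 3 libraries of a group biological replicates. All 8 members are named; of each list the called genes, or, over 4, the 2 largest rises and falls; and 2 genes of highest r per member. Some list genes that this rule names are not reported here. Exact intervals condition on summed counts. The fit was also run on simulated counts, and the outcome is not reported here. The alternatives used DESeq2 1.42.0, limma 3.58.1 (voom) and other filters and scalings.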

Additional observations from a re-analysis of the deposited data

Results flagged for a closer look

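For 5 values the responses of the genotypes differed beyond the fold threshold by edgeR's test of the difference itself (n = 3 libraries per group, WT minus IRF5-/-, on the log2 scale, with Benjamini-Hochberg adjustment over all tested genes). For LPS they were Il10ra (1.87, adjusted p = 0.0114) and Tgfbr1 (-1.91, adjusted p = 1.95e-05). For defactinib after LPS they were Il10 (-3.61, adjusted p = 0.0155), Il10ra (-3.56, adjusted p = 3.08e-05) and Tgfbr1 (1.15, adjusted p = 0.000181). Il10 passed the filter on low counts only through libraries with LPS and was not tested with a filter of 5 CPM, so its value is a description. With replicate 3 as the sole IRF5-/- LPS DMSO library the Il10 difference was -2.64 (adjusted p = 0.0859), and the other 4 values were 1.01, -1.91, -2.70 and 1.15 in the order given. That fit was chosen after the data were seen and takes the spread of the group with 1 library from the other groups, so it does not show that the calls are stable. The noncoding RNA Gm26917 separates the libraries of that group, and its part was not tested.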

How the results depend on the processing

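Of 72 combinations of gene and comparison 16 were called. Of 2001 values under 28 alternatives, 18 of which left out a library, 1905 kept their direction and side of the thresholds, 9 lost a call, 33 gained one and 54, none of them called in the main analysis, changed sign. The cause of these changes was not tested. The counts do not measure stability. A library left out of a group that a comparison does not use acts only through the filter, the scaling and the shared spread. The setting with no fold threshold keeps the main fit.

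Counts of called genes moved as follows. LPS in IRF5-/- gave 0 with a filter of 5 CPM and with only the groups compared (Il10 was then below the filter and not tested), 2 by library size alone, limma-voom or a replicate block, and 5 with no fold threshold. WT against IRF5-/- after LPS gave 0 from replicate 3 alone (chosen after seeing the data), 2 with the 5 CPM filter, library size or only the groups compared, and 4 with no fold threshold; leaving out a library gave 1 to 4. After defactinib the 5 CPM filter and only the groups compared, again without Il10, gave 1, and leaving out a library 1 to 2. Unstimulated, no fold threshold gave 1, and leaving out a library 0 to 1. Defactinib in IRF5-/- gave 2 from replicate 3 alone. The LPS difference between genotypes gave 2 to 4 when a library was left out, the defactinib difference 3 to 4 (and 4 by DESeq2 or limma-voom), and defactinib in WT 3 to 4. With no fold threshold LPS in WT gave 4, defactinib in WT 6 and the defactinib difference 4. Same-numbered libraries did not deviate together (45 pairs, median r 0.0046, 4 over 0.1). The titles number the replicates and do not say whether equal numbers share an animal or a batch, so pairing is not known.

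From replicate 3 alone the sign changed for defactinib in IRF5-/- (Il10 -0.54, Il10rb -0.40, Tgfbr2 -0.012), LPS in IRF5-/- (Il10ra 0.80, Il10rb 0.039, Il13ra1 -0.15), Il4ra between genotypes after LPS (-0.16), and the differences for LPS (Il13ra1 0.23, Il4ra -0.28, Tgfbr2 -0.12) and defactinib (Il13ra1 -0.27). By library size alone it changed for LPS in WT (Il10rb -0.14, Il13ra1 -0.30, Tgfb1 -0.34), LPS in IRF5-/- (Il13ra1 -0.042, Tgfb1 -0.14), WT against IRF5-/- after LPS (Il13ra1 -0.11, Tgfb1 -0.042), defactinib in IRF5-/- (Il10rb -0.035, Tgfb1 -0.12), defactinib in WT (Tgfb1 0.11) and the differences for LPS (Tgfbr2 -0.11) and defactinib (Tgfb1 0.23). Tgfb1 under defactinib in IRF5-/- was -0.0021 by DESeq2 and by its size factors, -0.047 with the 5 CPM filter, -0.0058 by limma-voom, -0.0089 with no filter and -0.013 with only the groups compared, and its defactinib difference 0.0017 with the 5 CPM filter.

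Leaving out each library in turn, the ranges that crossed 0 were: Il10ra, LPS in IRF5-/- -0.77 to 0.22, and defactinib in IRF5-/- -0.71 to 0.28; Il10rb, defactinib in IRF5-/- -0.058 to 0.47; Il13ra1, genotypes after LPS -0.028 to 0.22; Il4ra, defactinib in IRF5-/- -0.51 to 0.35; Tgfb1, LPS in WT -0.012 to 0.12, defactinib in IRF5-/- -0.13 to 0.060, defactinib in WT -0.18 to 0.014, and the differences -0.14 to 0.023 (LPS) and -0.16 to 0.057 (defactinib); and Tgfbr2, the LPS difference -0.095 to 0.12. Il10 rested on 0 to 18 counts a library, which limits every statement on it.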
